A study of Mus musculus with 14 samples.

Results

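The genes described here make glutathione or use it: the subunits of the enzyme that starts its synthesis (Gclc and Gclm), the reductase that restores it (Gsr), and 7 transferases that attach it to other molecules (Gstm1, Gstm2 and Gstm5 of the mu class, Gsta4 of the alpha class, Gstt1 of the theta class, Gstp1 of the pi class and Gsto1 of the omega class). All probe sets annotated to 1 of these 10 genes alone were taken from the 45101 on the array, which gave 17, and all 17 passed the filter on dim signal. They stand for 10 of the 13579 genes tested. Gstm1 had 4 probe sets, Gsto1, Gclc, Gclm and Gsr had 2 each, and the other 5 genes had 1.

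RNA came from skeletal muscle precursor cells of C57BL/6 mice aged 2 months (young, 5 arrays), 12 months (middle-aged, 4 arrays) and 24 months (aged, 5 arrays), and the labels name no treatment. Cells bound to muscle fibres were freed with enzymes and sorted as CD45-, Ter119-, Sca-1-, CD29+ and Cxcr4+, a sort that selects for muscle stem cells (satellite cells). The study asked which transcripts change with age in these cells. The labels do not say how many mice gave each array, whether mice were pooled or what their sex was, so p-values measure only the spread between these samples, and that spread may be technical.

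Glutathione is a small peptide of glutamate, cysteine and glycine that cells keep at high levels as a reducing agent. Glutamate-cysteine ligase joins the first pair of amino acids and sets the pace of synthesis, with Gclc as the catalytic and Gclm as the regulatory subunit. Glutathione reductase uses NADPH to return the oxidized form to the reduced one, and the transferases join glutathione to electrophiles such as the aldehydes left by lipid peroxidation. Many of these genes are textbook targets of the transcription factor Nrf2 (Nfe2l2), which binds antioxidant response elements in their promoters.

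The 14 arrays fell into an array set of 8 and another of 6 that cross the ages, split by the first principal component of age-centred values (31.5% of their variance, members included). Set 1 held 3 young, 3 middle-aged and 2 aged arrays, and set 2 held 2, 1 and 3. The signal of Gapdh and Actb probe sets at the 3' end exceeded that at the 5' end by 4.30 ± 0.54 at 2 months, 3.85 ± 0.25 at 12 months and 3.54 ± 0.51 at 24 months (log2, SD). This 3' bias measures RNA quality and labelling, and it moved with age; its part in the results was not tested beyond the covariate fits given. Satellite cell and myogenic markers were measured in full (10 of 10), while Ptprc, which encodes CD45, lay below the dim-signal filter. Markers of other cells were measured too: 7 of 9 for macrophages and myeloid cells, 9 of 9 for tenocytes and 10 of 11 for mature myofibres.

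Of the 10 genes, Gstm2 was the member whose transcript passed the test between ages. Its neighbours in the mu class cluster of mouse chromosome 3 did not pass. RefSeq orders this cluster as Gstm5, Gstm7, Gstm6, Gstm3, Gstm2, Gstm1 and Gstm4. Of the 3 members in this cluster, Gstm2, Gstm1 and Gstm5, Gstm2 alone was called, and differences between them were not tested. The 250 bases before the start of each are shown. They are from RefSeq (GRCm38.p6), at chr3:107986421-107986670 on the minus strand for Gstm2, chr3:107895604-107895853 on the plus strand for Gstm5 and chr3:108017819-108018068 on the minus strand for Gstm1, for which RefSeq gives another start too. Capitals mark the core of an antioxidant response element, TGACNNNGC, searched on both strands.
Gstm2: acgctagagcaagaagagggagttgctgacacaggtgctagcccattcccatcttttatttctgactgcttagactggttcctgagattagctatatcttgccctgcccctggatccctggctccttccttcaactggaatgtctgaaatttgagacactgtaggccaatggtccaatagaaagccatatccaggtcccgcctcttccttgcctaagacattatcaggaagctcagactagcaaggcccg
Gstm1: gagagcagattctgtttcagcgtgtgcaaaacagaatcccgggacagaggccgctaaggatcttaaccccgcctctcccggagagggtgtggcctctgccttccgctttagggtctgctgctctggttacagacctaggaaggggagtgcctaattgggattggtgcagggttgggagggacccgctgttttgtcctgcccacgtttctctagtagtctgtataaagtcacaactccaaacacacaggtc
Gstm5: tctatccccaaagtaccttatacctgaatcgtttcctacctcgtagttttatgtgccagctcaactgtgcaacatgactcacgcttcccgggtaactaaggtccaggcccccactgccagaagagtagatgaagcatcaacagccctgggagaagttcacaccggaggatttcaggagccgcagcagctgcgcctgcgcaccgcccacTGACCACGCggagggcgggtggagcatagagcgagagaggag

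Of the 7 members with a promoter window in the table, Gstm5 and Gclm held the core within these 250 bases. That core occurred in 13.8% of the tested genes with a window, so the count is a description of the letters and of nothing else. The Gclm match lay on the other strand, 134 bases before the start, and is shown as read there with 10 bases on each side (chr3:122245413-122245441, minus strand).
Gclm: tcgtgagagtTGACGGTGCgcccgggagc

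Gstm2 encodes a cytosolic transferase of muscle and other tissues that conjugates glutathione to electrophiles. Its log2 intensity was 6.79, 6.48, 6.80, 7.20 and 6.89 on aged arrays 1 to 5, against 6.01, 6.18, 6.08, 5.69 and 5.94 on young arrays 1 to 5. The lowest aged array exceeded the highest young array, so the groups did not overlap in either array set. The rise was 0.85 ± 0.16 (log2, SE), or 1.81-fold with a 95% interval of 1.43 to 2.28 (limma, adjusted p = 0.00611 over all genes). In this comparison 3.05% of all tested genes rose, 1.25% fell and 4.3% changed either way, so the members' 10% rests on a single gene. Groups without overlap in the upward direction were found for 3.48% of all tested genes.

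On the middle-aged arrays Gstm2 stood at 6.59, 6.07, 6.54 and 6.64. Arrays 1, 3 and 4 lay above all young arrays and array 2 among them, while the highest of the 4 stayed below 4 of the 5 aged arrays. Means were 5.98 ± 0.18 at 2 months, 6.46 ± 0.27 at 12 months and 6.83 ± 0.26 at 24 months (log2, SD). The early step was 0.48 ± 0.17 and the late step 0.37 ± 0.17 (log2, SE). Neither step passed over all genes (adjusted p = 0.159 and 0.499), and their difference was -0.11 ± 0.30 (late minus early, adjusted p = 0.926). On the linear scale the deposited intensities averaged 63.4 ± 7.78 at 2 months, 89.0 ± 14.9 at 12 months and 115 ± 20.8 at 24 months (SD). Over the 3 ages together the F-test called Gstm2 (adjusted p = 0.0167) and none of the other 9 members, where 4.16% of all genes were called.

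The call for Gstm2 depended on some choices. With the 3' bias as a covariate, the change was 0.58 (log2) and did not pass (adjusted p = 0.0747). It was 0.71 within array set 1 (adjusted p = 0.108) and 0.91 within set 2 (adjusted p = 0.209), where fewer arrays entered, and the call held when any single array was left out (adjusted p = 0.00387 to 0.0194).

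**Figure D1:**
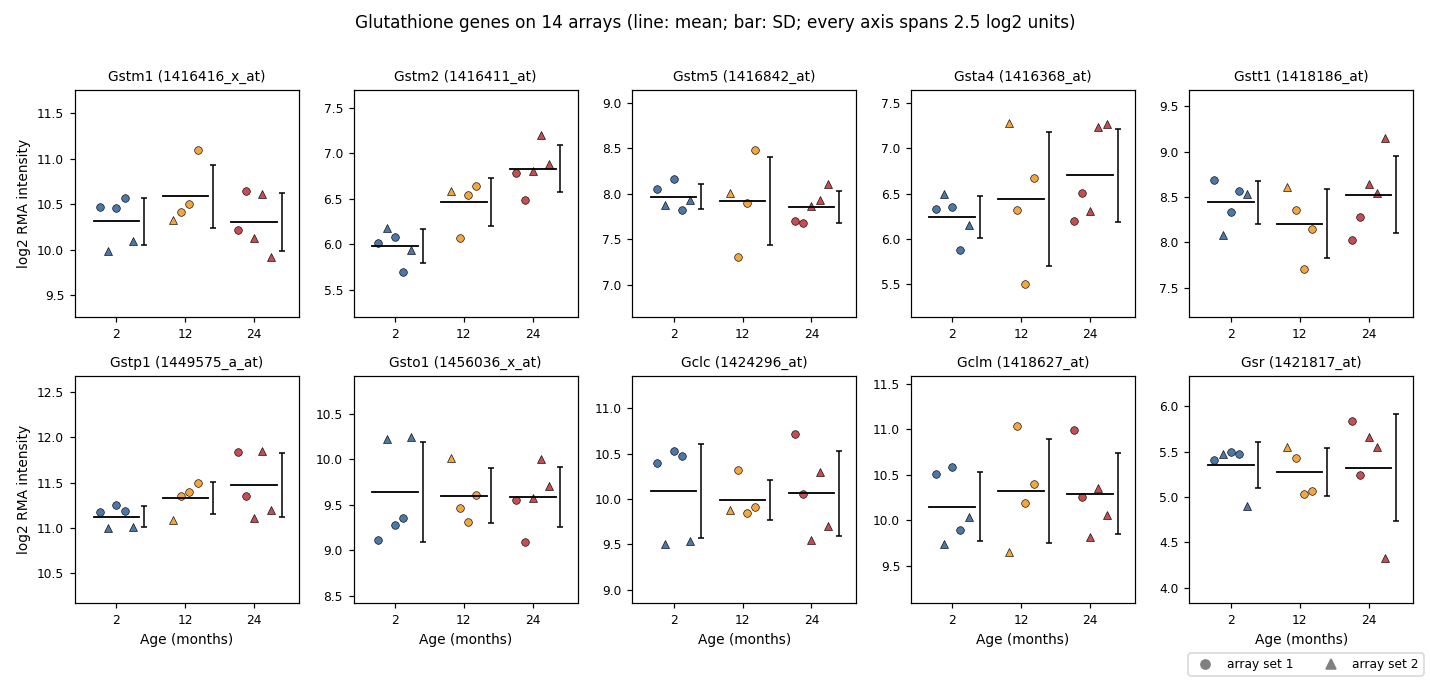
Log2 RMA intensity of the 10 genes on each array at 2, 12 and 24 months, with the mean (line) and SD (bar); circles are arrays of set 1 and triangles of set 2, and each panel spans the same range. Gstm2 averaged 5.98, 6.46 and 6.83 at the 3 ages with no overlap of aged and young arrays. The young arrays of Gstm1, Gstp1, Gsto1 and Gclc part by array set.

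No other measured gene of the mu class was called in aged against young cells. Gstm1, an abundant conjugating enzyme in liver, stood at 10.22, 10.65, 10.13, 10.61 and 9.92 on aged arrays, against 10.46, 9.98, 10.46, 10.57 and 10.09 on young arrays. These ranges overlapped almost wholly, and the change was -0.01 ± 0.19 (log2, SE; 95% interval -0.41 to 0.40, adjusted p = 0.991). The interval of Gstm2, 0.51 to 1.19, does not reach that of Gstm1, although the difference between the genes was not tested. Middle-aged arrays gave 10.33, 10.42, 10.50 and 11.09 for Gstm1, and array 4 stood highest of all 14. Against young arrays that was a difference of 0.27 ± 0.20 (log2, SE; adjusted p = 0.575), and aged minus middle-aged was -0.28 ± 0.20 (adjusted p = 0.663).

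The other 3 probe sets of Gstm1 gave log2 changes of -0.18 to -0.04 in aged against young cells, with none past the test over 23887 probe sets. In that fit 1 of the members' 17 probe sets, that of Gstm2, was called (adjusted p = 0.00851), where 3.1% of all probe sets changed. In middle-aged against young cells 0 of 17 were called, where 1.86% changed. Each of the 4 probe sets was highest at 12 months, by 0.27 to 0.37 (log2) over young arrays, and middle-aged array 4 was the highest array for all 4. Probe sets 1416416_x_at and 1448330_at gave almost the same order of arrays (Pearson r = 0.96 over 14 arrays), while 1425627_x_at correlated at 0.40 with 1416416_x_at. Suffixes such as _x mark probes that can bind transcripts of related genes, so the mu class genes may share signal here.

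Gstm5, a mu class enzyme best known from brain and testis, had log2 values of 7.70, 7.67, 7.87, 7.93 and 8.10 on aged arrays, against 8.05, 7.88, 8.16, 7.82 and 7.93 on young arrays. The groups overlapped, with a change of -0.11 ± 0.18 (log2, SE; 95% interval -0.50 to 0.27, adjusted p = 0.817). Middle-aged arrays spread more widely, at 8.003, 7.30, 7.90 and 8.48. The Pearson r of Gstm5 with Gstm2 was 0.18 over the 14 arrays, and 0.69 with each age group centred on its mean.

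Gstm3, Gstm4 and Gstm7, which are not among the 10 and were picked for their place in the cluster after their values were seen, also stayed short of a call. Their aged against young changes were -0.07 ± 0.17, -0.18 ± 0.15 and -0.18 ± 0.12 (log2, SE; adjusted p = 0.886, 0.594 and 0.493), and Gstm6 lay below the dim-signal filter. Group means of Gstm3, Gstm4 and Gstm7 were low, at 4.71 to 5.57, beside a dim-signal level of 3.79 to 3.96 (log2). Of the 6 measured genes of the cluster, 1 had a positive change between aged and young cells, 5 between middle-aged and young cells, and 1 between aged and middle-aged cells. In each of the comparisons with aged cells the positive one was Gstm2.

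**Figure D2:**
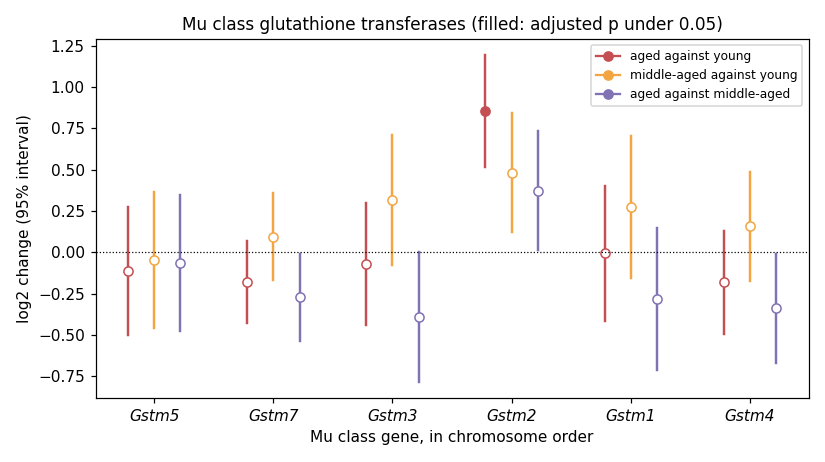
Log2 changes of the 6 measured mu class transferases with 95% intervals, in their order along the chromosome, for aged against young, middle-aged against young and aged against middle-aged cells. The interval of Gstm2 in aged against young cells, 0.51 to 1.19, is the only filled point, and the other 5 genes lie between -0.18 and -0.01 in that comparison.

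Gstp1, the pi class transferase abundant in many tissues, came nearest to the threshold after Gstm2. It stood at 11.84, 11.36, 11.11, 11.85 and 11.19 on aged arrays, against 11.18, 11.001, 11.25, 11.19 and 11.01 on young arrays. Aged arrays 1 and 4 lay far above the young range and array 2 above it, while arrays 3 and 5 lay within it. The difference was 0.34 ± 0.16 (log2, SE) or 1.27-fold (unadjusted p = 0.05004, adjusted p = 0.301), and the spread was 0.35 on aged and 0.11 on young arrays (SD). Middle-aged arrays stood at 11.09, 11.35, 11.39 and 11.50. Its only probe set, 1449575_a_at, is annotated to Gstp1 alone, but Gstp2 is a near-identical neighbour that had no probe set of its own, so the signal may come from both.

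Gsta4, an alpha class enzyme that conjugates the lipid aldehyde 4-hydroxynonenal, had the widest error of the 10 in its change. Its aged values were 6.198, 6.50, 6.31, 7.23 and 7.27, against young values of 6.33, 6.49, 6.35, 5.88 and 6.16. Aged arrays 4 and 5 lay clear of the young range and the other 3 within or near it. The difference was 0.46 ± 0.29 (log2, SE; 95% interval -0.16 to 1.08, adjusted p = 0.480), and with the 3' bias as covariate it was 0.05. Middle-aged values ran from 5.50 on array 3 to 7.27 on array 1, the widest spread of that group among the 10 genes.

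Gstt1, the theta class transferase that acts on small halogenated compounds, had aged values of 8.02, 8.28, 8.65, 8.54 and 9.14, against young values of 8.68, 8.09, 8.33, 8.57 and 8.54. The groups overlapped and the change was 0.09 ± 0.21 (log2, SE; adjusted p = 0.888). It was -0.37 within array set 1 and 0.46 within set 2, with opposite signs, and neither value passed (adjusted p = 0.399 and 0.606); the difference between sets was not tested. Middle-aged arrays stood at 8.61, 8.36, 7.71 and 8.15, which lay 0.23 ± 0.23 below young arrays (log2 change -0.23, adjusted p = 0.689).

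Gsto1, an omega class enzyme with thiol transferase and reductase activity, was not called, and at 1 probe set its young arrays parted by array set. The sets were defined from these same arrays, members included, so that split is a description. Young arrays parted by set for Gstp1 too, for Gstm1 at 1416416_x_at and 1448330_at, and for Gclm at 1439050_at. The share of all probe sets that part in this way was not computed. Probe set 1456036_x_at, used for Gsto1, stood at 9.55, 9.09, 9.57, 10.001 and 9.70 on aged arrays, against 9.12, 10.23, 9.27, 9.35 and 10.24 on young arrays. Young arrays 2 and 5, of set 2, stood well above the other 3, which are of set 1. The change with age was -0.06 ± 0.24 (log2, SE; adjusted p = 0.938). The other probe set, 1416531_at, did not part the young arrays in this way (9.32 to 9.55) and gave a change of 0.17 ± 0.20 (adjusted p = 0.764 over probe sets), with its highest value, 10.39, on aged array 4.

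The genes of synthesis did not pass in any comparison. Gclc stood at 10.71, 10.05, 9.55, 10.29 and 9.71 on aged arrays, against 10.39, 9.50, 10.53, 10.47 and 9.54 on young arrays, a change of -0.03 ± 0.25 (log2, SE; 95% interval -0.57 to 0.51, adjusted p = 0.976). Here too the young arrays split, with arrays 2 and 5 of set 2 below the other 3. Gclm stood at 10.995, 10.25, 9.82, 10.35 and 10.05 on aged arrays, against 10.51, 9.73, 10.58, 9.90 and 10.03 on young arrays, a change of 0.14 ± 0.27 (95% interval -0.42 to 0.71, adjusted p = 0.843). The intervals reach up to 1.43-fold for Gclc and 1.64-fold for Gclm, so rises of that size lie within the error. At 12 months Gclc stood at 9.88, 10.32, 9.84 and 9.91 and Gclm at 9.65, 11.03, 10.19 and 10.40, with changes of -0.10 ± 0.27 and 0.17 ± 0.28 against young arrays (adjusted p = 0.907 and 0.840).

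The probe-set pairs of both subunits moved in opposite directions between array sets. At equal age, set 2 minus set 1 was -0.60 for Gclc 1424296_at and -0.59 for Gclm 1418627_at, but 0.36 for Gclc 1455959_s_at and 0.76 for Gclm 1439050_at (log2). The median size of that difference over kept probe sets was 0.24, and the sets were defined from these same arrays, so these values are a description. Over all 14 arrays the probe sets of a pair did not rank the arrays alike (r = -0.01 for Gclc and -0.38 for Gclm), and the part of the array sets in that was not tested. Across ages the pairs agreed in showing no call: 1455959_s_at had -0.25 ± 0.24 and 1439050_at 0.09 ± 0.31 in aged against young cells (adjusted p = 0.681 and 0.932 over probe sets).

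**Figure D3:**
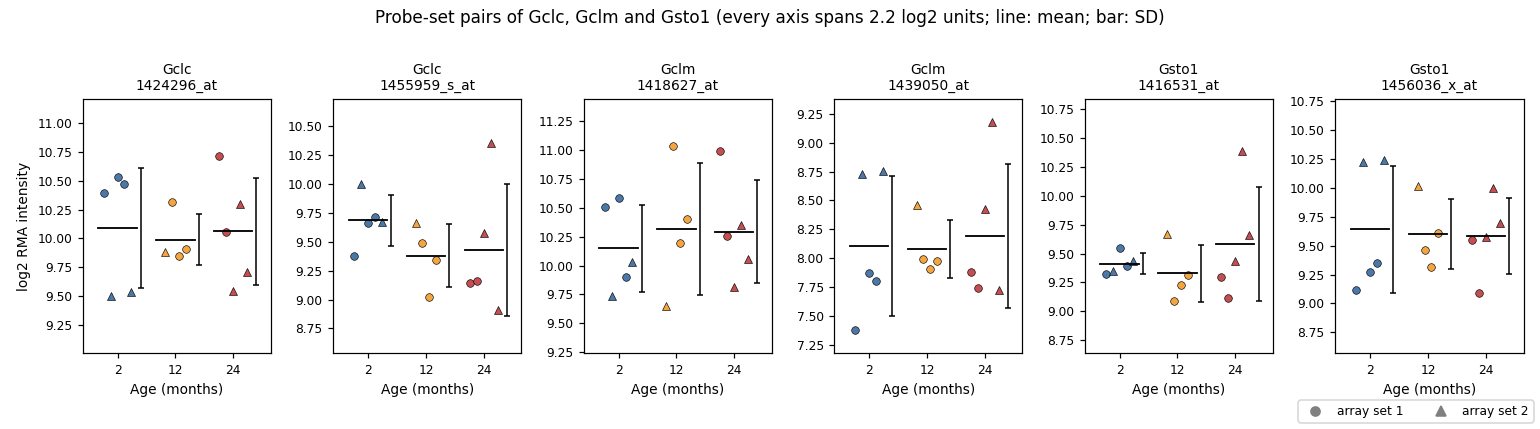
Log2 RMA intensity of the paired probe sets of Gclc, Gclm and Gsto1 on each array, with the mean (line) and SD (bar); circles are set 1 and triangles set 2, and each panel spans the same range. Set 2 lies 0.60 lower for Gclc 1424296_at and 0.76 higher for Gclm 1439050_at at equal age (log2), while no comparison of ages passed for any of these probe sets.

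Gsr, the reductase which regenerates reduced glutathione, did not pass either. Probe set 1421817_at stood at 5.83, 5.24, 5.66, 5.55 and 4.33 on aged arrays, against 5.41, 5.47, 5.50, 5.47 and 4.90 on young arrays. The fifth array of each group was the low one, and the change was -0.03 ± 0.24 (log2, SE; 95% interval -0.54 to 0.49, adjusted p = 0.9746). Its other probe set, 1421816_at, passed the dim-signal level on 11 of 14 arrays and gave -0.22 ± 0.22 (adjusted p = 0.707 over probe sets).

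Over the 10 genes, 1 rose and 0 fell in aged against young cells, with changes from -0.11 to 0.85 and a median of 0.04 (log2), beside a median of -0.05 over all genes. In middle-aged against young cells, 0 of 10 passed, with changes from -0.23 to 0.48 and a median of 0.06, where 1.75% of all genes rose, 1.22% fell and 2.97% changed, and the median over all genes was -0.04. In aged against middle-aged cells limma called 0 of the 10 and 0% of all 13579 genes, while 1 of the 10 (Gstm2) and 1306 genes (9.62%) had an unadjusted p under 0.05. Of the 10, 5 had a positive change in each of the first 2 comparisons and 6 in the last. The comparisons share arrays, so their counts are not independent.

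**Figure D4:**
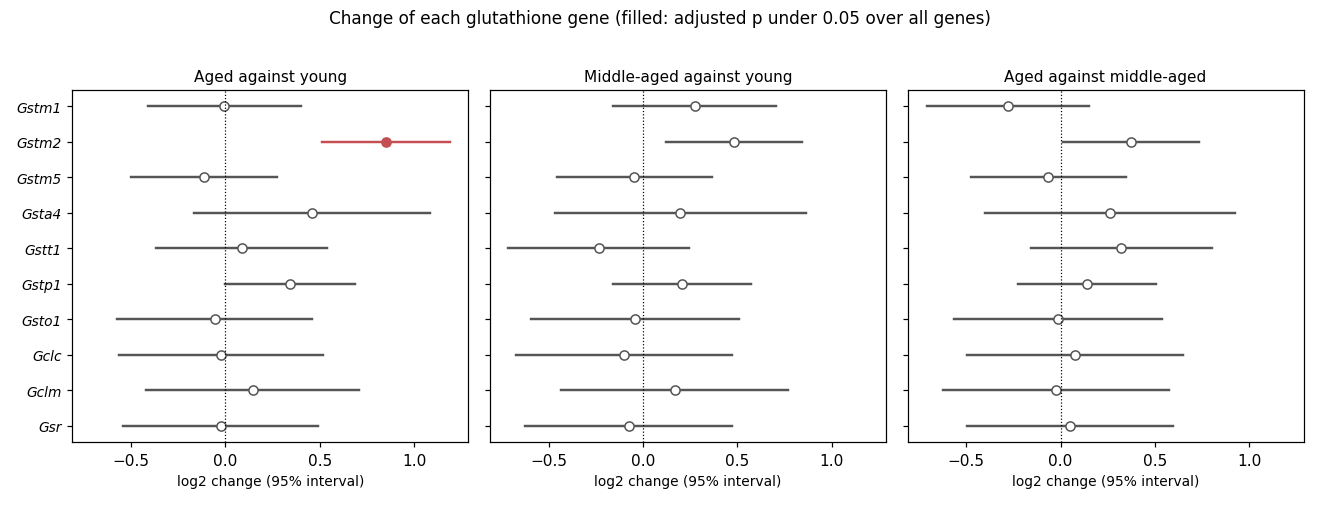
Log2 change of each of the 10 genes with its 95% interval in aged against young, middle-aged against young and aged against middle-aged cells; filled points passed an adjusted p under 0.05 over all genes. Gstm2 in aged against young cells, at 0.85, is the filled point, and all other intervals in that comparison reach 0.

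The genes whose values followed Gstm2 most closely over the 14 arrays were Ddit4l, an mTOR pathway inhibitor (Pearson r = 0.94), the calcium-binding protein S100a6 (0.91), the chemokine Ccl11 (0.91), the vesicle GTPase Rab20 (0.90) and the proteasome activator subunit Psme1 (0.90). With each age group centred on its mean, r was 0.62 to 0.74. All 5 rose in aged against young cells, so these values describe shared change over arrays that share ages and sets, and say nothing of shared control.

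Transcripts used as markers of other cells also changed over these arrays, and their cell of origin was not tested. In aged against young cells 3.05% of all tested genes rose and 1.25% fell, beside the counts given for each list. Tenocyte markers (9 of 9 measured, 7 rose) had list means of 9.49 to 10.37 on aged arrays against 7.08 to 8.21 on young arrays (log2), and mature myofibre markers (10 of 11 measured, 9 rose) 7.95 to 9.44 against 6.02 to 7.30. Neither pair of ranges overlapped, and nor did those of the macrophage and pericyte lists. Macrophage and myeloid markers (7 of 9 measured) had means of 5.20 to 5.72 on aged arrays against 4.94 to 5.15 on young arrays. Cd14 was the 1 riser, and Ptprc and Itgam lay below the filter. Lyz2 and Cd14 had log2 changes of 1.61 and 1.33. Cd68, Adgre1, Csf1r, Tyrobp and Fcer1g had 0.19, 0.10, 0.29, -0.26 and 0.09. Fibro-adipogenic markers (9 of 10 measured, 1 rose) had means of 8.95 to 10.31 against 9.24 to 9.64, and endothelial markers (6 of 9 measured, with Pecam1, Tie1 and Emcn below the filter and 1 that fell, Tek, with a log2 change of -1.18 and adjusted p = 0.040002) 5.23 to 6.96 against 5.57 to 6.02. Pericyte markers (8 of 8 measured, 1 rose, Pdgfrb by 2.77 with adjusted p = 0.000215) had means of 7.03 to 7.99 against 6.49 to 6.98. In that list Acta2, Myh11 and Notch3 had log2 changes of -0.24, -0.27 and -0.70, and the others 0.83 to 2.77. Satellite cell and myogenic markers (10 of 10 measured, 1 fell, Calcr with a log2 change of -1.42 and adjusted p = 0.0219) had means of 9.11 to 9.37 against 9.31 to 9.95. Schwann markers (5 of 7 measured, 0 called) had means of 5.57 to 7.17 against 5.68 to 6.52, adipocyte markers (4 of 6 measured, 1 rose) 6.26 to 8.57 against 5.71 to 6.43, and erythroid markers (2 of 5 measured, 0 called) 6.16 to 6.91 against 6.19 to 6.40. The part of these cells in the rise of Gstm2 was not tested, and fewer cells of a type cannot be told apart from less RNA per cell in such samples.

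The other genes of glutathione chemistry were read from 5 lists. In aged against young cells 3.05% of all tested genes rose and 1.25% fell, and 3.48% had groups without overlap upward. In middle-aged against young cells 1.75% rose and 1.22% fell. These shares stand beside the counts of each list. Among other transferases, 12 of 19 were measured and 0 passed in any comparison, with a median change of 0.34 (log2) in aged against young cells. Gstt2, another theta class enzyme, had the smallest p over the 3 ages, with 1.07 ± 0.31 (log2, SE; adjusted p = 0.0705) in aged against young cells. Its young arrays lay at 3.57 to 4.37, around the dim-signal level of 3.79 to 3.96, so the size of that difference is uncertain, and 2 of 28 alternatives called it. The microsomal transferase Mgst1 stood at 9.05 to 9.87 on aged arrays, against 8.05 to 8.92 on young arrays, and though no arrays overlapped its change of 0.90 ± 0.28 did not pass (adjusted p = 0.0866), except under 1 of 28 alternatives. Gstz1, of the zeta class, and Mgst3 had 0.37 ± 0.17 and 0.42 ± 0.18 (adjusted p = 0.284 and 0.238). With the median of its probe sets Mgst3 had 0.11, and within array set 1 Gstz1 had -0.08 and Mgst3 0.10.

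In the list of synthesis, transport and breakdown, 18 of 25 genes were measured. In aged against young cells 1 rose and 0 fell, beside 3.05% and 1.25% of all genes, with a median of 0.17 (log2). The riser was Dpep1, a membrane dipeptidase that cuts the cysteinyl-glycine left when glutathione is broken down. It stood at 9.40, 9.99, 9.98, 5.86 and 8.57 on aged arrays, against 6.89, 5.28, 6.25, 6.32 and 5.52 on young arrays. Aged array 4 lay inside the young range while the other 4 lay far above it, and the change was 2.71 ± 0.64 (log2, SE) or 6.53-fold (adjusted p = 0.0235). Leaving out young array 2, 3 or 5 or aged array 1, 2 or 3 ended that call (adjusted p from 0.0542). Within array set 2 the Dpep1 change was 2.74 and did not pass. Gss, glutathione synthetase, which completes the peptide, had -0.18 ± 0.18 (adjusted p = 0.688), but 0.18 without probe sets of shared sequence, so its direction was not settled, and the cystine transporter Slc7a11 lay below the filter. The exporter Abcc5 had -0.45 ± 0.14 in aged and -0.55 ± 0.14 in middle-aged against young cells (adjusted p = 0.0798 and 0.0535), Abcg2 0.85 ± 0.36 in aged against young cells (adjusted p = 0.231) and Ggct 0.63 ± 0.22 (adjusted p = 0.135). Ggct passed under 3 of 29 alternatives, among them the median of its probe sets (0.66, adjusted p = 0.0179). Abcg2 passed under 1, without aged array 1 (1.1997, adjusted p = 0.0271), and had 0.27 with the 3' bias as covariate. Abcc5 passed under 2 in aged and 4 in middle-aged against young cells, while the median of its probe sets gave -0.19 and 0.02.

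Among peroxidases, glutaredoxins and glyoxalases, 14 of 17 were measured. In aged against young cells 1 rose and 0 fell, beside 3.05% and 1.25% of all genes, with a median of 0.07 (log2). In middle-aged against young cells 0 rose and 1 fell, beside 1.75% and 1.22% of all genes, with a median of -0.25. Glrx, the cytosolic glutaredoxin that removes glutathione from protein thiols, rose in aged against young cells. It stood at 5.78, 5.50, 6.41, 7.25 and 6.63 on aged arrays, against 4.66, 5.14, 4.70, 4.94 and 5.31 on young arrays. No arrays overlapped, and the rise was 1.36 ± 0.28 (log2, SE) or 2.57-fold (adjusted p = 0.0106), though not with the 3' bias as covariate (0.83, adjusted p = 0.124) or within set 2 (adjusted p = 0.141). Hagh, the second glyoxalase, fell in middle-aged against young cells by 0.66 ± 0.16 (log2, SE; adjusted p = 0.0403), a call that held under 14 of 29 alternatives. Glo1, the first glyoxalase, had -0.48 ± 0.18 in that comparison (adjusted p = 0.187), and the peroxidase Gpx1 had 0.58 ± 0.20 in aged against young cells (adjusted p = 0.125). Glo1 and Gpx1 each passed in those comparisons under 1 of 29 alternatives.

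**Figure D5:**
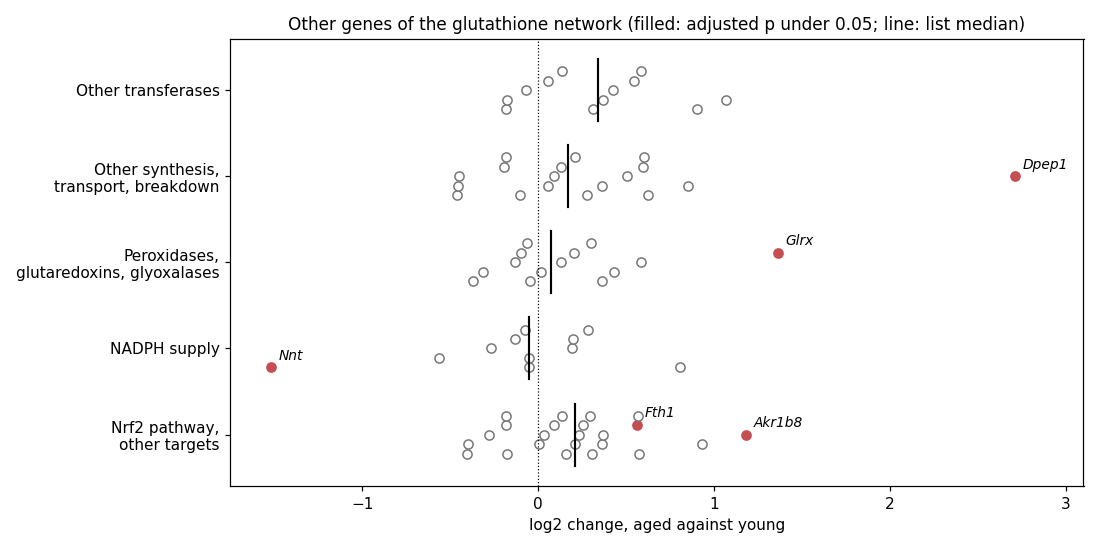
Log2 change in aged against young cells of each measured gene in the 5 lists of the glutathione network, 1 point per gene, with the list median as a line; filled points passed an adjusted p under 0.05. The filled points are Dpep1 at 2.71, Glrx at 1.36, Akr1b8 at 1.18, Fth1 at 0.56 and Nnt at -1.52.

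For NADPH supply, 11 of 12 genes were measured. In aged against young cells 0 rose and 1 fell, beside 3.05% and 1.25% of all genes, with a median of -0.05 (log2). The gene that fell was Nnt, the mitochondrial transhydrogenase, at 4.98 to 6.64 on aged arrays against 6.76 to 8.18 on young arrays (log2 change -1.52 ± 0.37, adjusted p = 0.0286), with no overlap, as in 1.97% of all genes in that direction. Leaving out single arrays ended that call (young 2, 3 or 5, aged 1 or 4). The Nnt change did not pass with array weights (-1.34, adjusted p = 0.0601) or within array set 1 (-1.20, adjusted p = 0.199). Within set 2 it was -2.09 and did not pass either. Taldo1, of the pentose phosphate pathway, fell in middle-aged against young cells by 0.63 ± 0.15 (log2, SE; adjusted p = 0.0366) but had -0.05 ± 0.14 in aged against young cells, and 7 single arrays each ended the call when left out. Tkt, of the same pathway, had 0.81 ± 0.30 in aged against young cells (adjusted p = 0.171) and Idh2, a mitochondrial dehydrogenase, -0.56 ± 0.36 (adjusted p = 0.481). Both depended on the probe set: with the median of the gene's probe sets Tkt had 0.25 and Idh2 -0.29, and with shared-sequence probe sets left out 0.22 and -0.02. Within array set 1 both passed (Tkt 1.56, adjusted p = 0.0258; Idh2 -1.45, adjusted p = 0.0127), and within set 2 they had 0.28 and 0.38.

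The Nrf2 list had 23 of 25 genes measured. In aged against young cells 2 rose and 0 fell, beside 3.05% and 1.25% of all genes, with a median of 0.21 (log2). Akr1b8, an aldo-keto reductase, stood at 7.67, 7.78, 8.08, 7.77 and 7.41 on aged arrays, against 6.21, 6.37, 6.40, 6.90 and 6.93 on young arrays. No arrays overlapped, and the rise was 1.18 ± 0.17 (log2, SE) or 2.27-fold (adjusted p = 0.000980). That call held under 28 of 29 alternatives and was lost within array set 2 (1.11). Akr1b8 rose in middle-aged against young cells too, by 0.71 ± 0.18 (adjusted p = 0.0470), a call that held under 10 of 29 alternatives. Fth1, the ferritin heavy chain, rose by 0.56 ± 0.14 (adjusted p = 0.0369) in aged against young cells, and the call held under 14 of 28 alternatives. Nfe2l2 itself and its inhibitor Keap1 had 0.13 ± 0.21 and -0.18 ± 0.22 in aged against young cells (adjusted p = 0.817 and 0.749), and with the 3' bias as covariate -0.33 and 0.13. The reductase Nqo1 lay at 3.58 to 4.42 on aged arrays and 3.57 to 4.01 on young arrays, around the dim-signal level, so its change of 0.25 ± 0.17 (adjusted p = 0.504) is not interpretable. Blvrb and Slc48a1, both of haem handling, had 0.57 ± 0.16 and 0.93 ± 0.27 (adjusted p = 0.0547 and 0.0725). Blvrb passed under 4 of 29 alternatives, as with quantile normalization (adjusted p = 0.0368), and Slc48a1 under 6 of 28, as with the median of its probe sets (adjusted p = 0.0214).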

How the data were processed

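The deposited values are RMA intensities on a linear scale, 1 per probe set and array, made by the authors with RMA, per the submitters' processing notes. Its version and the genome build were not given in the sources used here. RMA adjusts for background, puts arrays on a common distribution and combines a probe set's probes. Their log2 was taken here. Symbols came from the platform annotation of 2016; of 45101 probe sets, 64 controls, 932 with several genes and 9160 with none were left out. Probe sets above the 40th percentile of an array (log2 3.79 to 3.96) on at least 4 arrays were kept (23887), and each of 13579 genes was read from the kept probe set of highest mean. All 14 arrays entered 1 limma model (limma 3.58.1, R 4.3.3) with age as the only factor, Benjamini-Hochberg adjustment over all genes and a call at an adjusted p under 0.05; the same model was fitted to all kept probe sets. The script was tested on simulated data. Errors of changes are moderated SE and those of means SD. Arrays have no counting depth, and their number limits the precision.

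The members, gene lists, marker lists and array sets were chosen with earlier results of these data known. All 10 members are named; from each list, the 4 genes with the smallest F-test p over the 3 ages, and Gss, Nfe2l2, Keap1 and Nqo1. Alternatives changed the dim filter, the probe set of a gene, the normalization, the eBayes variance model, weights per array, the 3' bias as covariate, a replicate block, the array set, the groups in the fit, and each array left out. Promoter windows came from RefSeq (GRCm38.p6).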

Additional observations from a re-analysis of the deposited data

Results flagged for a closer look

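In 7 of 51 sets of one probe set and one age group, 1 array stood far from the rest of its group. Chance gives about 1 in 20 for independent sets. These sets share arrays and genes, so the count cannot be weighed against that rate. Middle-aged array 4 was high for Gstm1 at 1425626_at (6.81, against 6.33 to 6.36 on the others) and at 1448330_at (10.16, against 9.33 to 9.43). Young array 3 was low for Gstm1 at 1425627_x_at (7.48, against 8.14 to 8.22). Middle-aged array 2 was low for Gstm2 (6.07, against 6.54 to 6.64) and high for Gclc at 1424296_at (10.32, against 9.84 to 9.91). Middle-aged array 1 was high for Gclm at 1439050_at (8.46, against 7.91 to 7.99), and young array 5 was low for Gsr at 1421817_at (4.90, against 5.41 to 5.50). All values are log2 intensities. Of the 7, 5 were middle-aged arrays, the smallest group.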

How the results depend on the processing

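The count of glutathione genes called was 1 in aged against young cells and 0 in both other comparisons; it was 0 in aged against young cells with the 3' bias covariate and within array set 1 or 2, and so was the count of their probe sets called over all comparisons (1 otherwise). Without single arrays these counts were 1 to 1, 0 to 0, 0 to 0 and, for probe sets, 1 to 1. The Gstm2 change (0.85) was 0.58 with that covariate (adjusted p = 0.0747), 0.71 within set 1 (0.108) and 0.91 within set 2 (0.209), and it passed under the other 26 of 29 alternatives; the cause was not tested. Within sets fewer arrays enter, and set 2 has 1 middle-aged array, assumed to vary like the other groups. Of 867 recomputed changes of the 10 genes, 90 took the other sign, none of them called. The count of all genes called in aged against young cells (584) was 976 with the array set as a term and 21 within set 2, and 388 to 608 without single arrays (388 without young array 3). In middle-aged against young cells (403) it was 1153 with array weights, 717 with the covariate, 741 with the set as a term, 964 within set 1, 0 within set 2 and 155 to 458 without single arrays (209, 208 and 234 without young array 1, 3 or 4, 155 and 187 without middle-aged array 3 or 4). For the late minus the early step (0) it was 179 with array weights, 7 with the set as a term and 0 to 1 without single arrays (1 without middle-aged array 1 or 2). For any age (565) it was 1007 with array weights, 974 with the set as a term, 7 within set 2 and 282 to 603 without single arrays (306, 282 and 317 without young array 1, 3 or 4). In aged against middle-aged cells it stayed at 0 (0 to 0 without single arrays). Whether replicate numbers pair the arrays is not known. Of 13 same-numbered pairs 5 correlated over 0.1 (from -0.48 to 0.26), but other pairs were not computed, so these values cannot decide it. With the replicate block the counts were 194 in middle-aged against young cells and 341 for any age, and Gstm2 kept its call (adjusted p = 0.0237). Gstp1 had no value without probe sets of shared sequence.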
